A study of Arabidopsis thaliana with 6 samples.

Results

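The nitrate transporter 1 and peptide transporter family (NPF) of Arabidopsis thaliana was followed in roots after cadmium. The family was taken as 53 listed loci, and a locus was counted as measured when the array annotation named a probe set for it and for no other listed locus. Of the 53 loci, 34 had such a probe set, and each of the 34 had 1. Another 2 loci, AT3G45650 and AT3G45660, shared 1 probe set, and 17 had no named probe set. Over the whole array 13355 genes had a probe set of their own. The array carries 22810 probe sets, of which 15909 were tested, 27 of them NPF members. All roots were those of plants of the ecotype labelled Col0, aged 4 weeks and grown in hydroponics at 28 °C with 16 h of light and 8 h of dark. The 3 arrays labelled cadmium hold roots exposed to 200 µM of this toxic heavy metal for 6 h, and the 3 arrays labelled control hold roots taken as the control, although the treatment text in the labels stands on them too. The labels call the 3 samples of a group biological replicates and do not say how many plants each holds. Whole roots were used, so a change in the share of a cell type and a change in RNA per cell cannot be told apart.

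NPF proteins sit in membranes and carry their substrates together with protons. In Arabidopsis the family takes up nitrate from the soil (NRT1.1), loads it into the xylem (NRT1.5) and retrieves it from there (NRT1.8), moves di- and tripeptides (PTR1, PTR2 and PTR5), and also transports glucosinolates (GTR1 and GTR2) and hormones such as abscisic acid and gibberellin. NRT1.8 has been linked to cadmium tolerance in this plant. NRT1.1, NRT1.5, NRT1.8, NRT1.6, NRT1.7, NRT1.9, NRT1:2 and PTR1 to PTR6 were among the 17 loci without a named probe set, as were AT3G16180, AT1G52190, AT3G54450 and AT1G72120, and they are not analysed here. No sequences are shown, since none was at hand for these loci. NPF numbers are given where the RefSeq gene table lists them (11 of the 34 measured loci), and the other 23 are called by their locus.

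The pairs of arrays did not run the same way, which touches every result. Signals are linear MAS5 units, in which the probes of a set are combined and each array is scaled. The trimmed mean signal was 500 on each array of replicates 1 and 3, against 227 on the cadmium and 216 on the control array of replicate 2. Of the 15909 probe sets tested, 59.7% had differences of 1 sign in replicates 1 and 3 and the opposite sign in replicate 2, and 17.3% had 1 sign in all 3 pairs. The groups are named as labelled throughout. Whether the cadmium and control labels stand exchanged in replicate 2, or in replicates 1 and 3, was not tested, and an exchange in replicates 1 and 3 would turn the sign of the differences given for them. The comparison over all 6 arrays is given beside that within replicates 1 and 3, which are scaled alike. This smaller fit was also chosen knowing that replicate 2 opposed the other pairs. Its p-values thus follow a choice that favours agreement. Replicate 2 then adds 1 difference without a test. In the 2 pairs of ubiquitin control probe sets the log2 ratio of 3' to 5' signal, a measure of RNA integrity, was higher on the cadmium array in 3 of 3 pairs of arrays (0.94 to 1.26 against 0.65 to 1.05, and 0.37 to 0.59 against -0.02 to 0.28). In the actin and GAPDH control probe sets the sign differed between replicates, and both arrays of replicate 2 stood apart. The ratio of the second actin pair was 3.22 on the cadmium and 2.05 on the control array of replicate 2, and 0.07 to 0.34 on the other 4 arrays. That of the first GAPDH pair was 1.67 on the cadmium and 2.02 on the control array of replicate 2, and -0.60 to -0.19 on the other 4. The part of RNA integrity in the results was not tested. Of the root hair genes listed as markers, 3 of 7 had a named probe set, and their summed signals in replicates 1, 2 and 3 were 998, 390 and 1919 with cadmium, against 421, 369 and 843 in controls. Of these, XTH26 was under 62.1, a level treated here as a bound, on each control array (3.63 to 42.8). Of 13 shoot photosynthesis genes 2 were named, RCA and PRK, with summed signals of 2103, 342 and 1794 on the cadmium arrays, against 1735, 288 and 1636 on the control arrays. The listed markers of the endodermis and of the xylem and stele had 0 named probe sets, so these tissues could not be checked. The part of root hairs or shoot tissue in the results was not tested.

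Within replicates 1 and 3, AT3G45700, a locus of the tandem cluster, rose at least 6.71-fold and was the 1 member of 27 past the test, beside 1.29% of all probe sets higher and 3.24% lower. The other 26 tested members did not pass, and the widest of their differences were 1.78 (log2) for AT3G45680 and -1.30 for NPF4.3. Of the 27 differences 23 were positive and 4 negative, or 20 and 7 with arrays centred on their medians or quantile normalized. In replicate 2 the difference of AT3G45700 was -1.77. Over all 6 arrays 0 members passed, beside 0% of all probe sets in each direction.

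Differences are log2 values, cadmium minus control, tested with limma's moderated test and adjusted by Benjamini-Hochberg over all 15909 probe sets, with a threshold of 0.05. Over all 6 arrays 84 probe sets and 0 NPF members had an unadjusted p under 0.05 (limma). The lowest unadjusted p of a member there was 0.0954, for AT3G45700. The standard errors of the 27 members ran from 0.67 to 0.90 over all 6 arrays and from 0.21 to 1.23 within replicates 1 and 3. With 2 arrays a group, 10 members with higher and 1 with lower signal had an unadjusted p under 0.05 (limma), as had 3880 of all 15909 probe sets.

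The tandem cluster AT3G45650 to AT3G45720 holds 7 listed loci that follow each other along the chromosome, with 2 other protein-coding genes between AT3G45660 and AT3G45680 and none elsewhere. Of the 7, 5 had a probe set of their own and 4 were tested. AT3G45650, also called NAXT1, is a nitrate excretion transporter. The loci differed in size and in direction, although they are neighbours. Probes of near-identical copies can bind each other's transcripts, and no probe sequences were used here to check this.

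AT3G45700 had signals of 329, 119 and 528 on the cadmium arrays, against 54.6, 406 and 37.3 on the control arrays, in the order of replicates 1, 2 and 3 used throughout. In replicates 1 and 3 each cadmium array was above each control array, and both control arrays were below 62.1. In replicate 2 the control array was the brighter one. The fitted difference in replicates 1 and 3 was 3.21 ± 0.39 (SE, limma adjusted p = 0.0236), and 2.75 with low signals set to 62.1 (limma adjusted p = 0.0270). Over all 6 arrays the difference was 1.55 ± 0.87 (SE, limma adjusted p = 0.999995). The call within replicates 1 and 3 was lost without the cadmium array of replicate 1 (limma adjusted p = 0.0679) or of replicate 3 (limma adjusted p = 0.139), with differences of 3.55 and 2.86.

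AT3G45680 had signals of 186, 123 and 132 on the cadmium arrays, against 36.1, 130 and 57.2 on the control arrays. Its groups did not overlap in replicates 1 and 3, while the arrays of replicate 2 lay close together. The difference in replicates 1 and 3 was 1.78 ± 0.47 (SE, limma adjusted p = 0.105). Both control signals there were under 62.1, and with low signals set to that level the difference was 1.33 (limma adjusted p = 0.0860). AT3G45710 had signals of 678, 326 and 646 on the cadmium arrays, against 313, 396 and 343 on the control arrays. Here too the cadmium arrays of replicates 1 and 3 were the brighter ones and that of replicate 2 the dimmer one. Its difference was 1.01 ± 0.21 (SE, limma adjusted p = 0.0662).

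AT3G45720 had signals of 131, 51.5 and 140 on the cadmium arrays, against 84.7, 39.3 and 118 on the control arrays. The cadmium array was the brighter one in 3 of 3 pairs, by 0.63, 0.39 and 0.25, but both signals of replicate 2 were under 62.1, where they carry no order. The difference of 0.44 ± 0.35 in replicates 1 and 3 did not pass (SE, limma adjusted p = 0.475). AT3G45690, between AT3G45680 and AT3G45700, had signals of 81.8, 33.3 and 74.3 on the cadmium arrays, against 59.4, 27.2 and 89.9 on the control arrays. Its groups overlapped, and its mean signal was too low for the test.

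The probe set shared by AT3G45650 and AT3G45660 had signals of 618, 394 and 512 on the cadmium arrays, against 1098, 326 and 995 on the control arrays. It ran opposite to its neighbours, dimmer on the cadmium arrays of replicates 1 and 3 and brighter on that of replicate 2. Its difference was -0.89 ± 0.22 in replicates 1 and 3 (SE, limma adjusted p = 0.0921). The signal cannot be divided between the 2 genes.

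**Figure D1:**
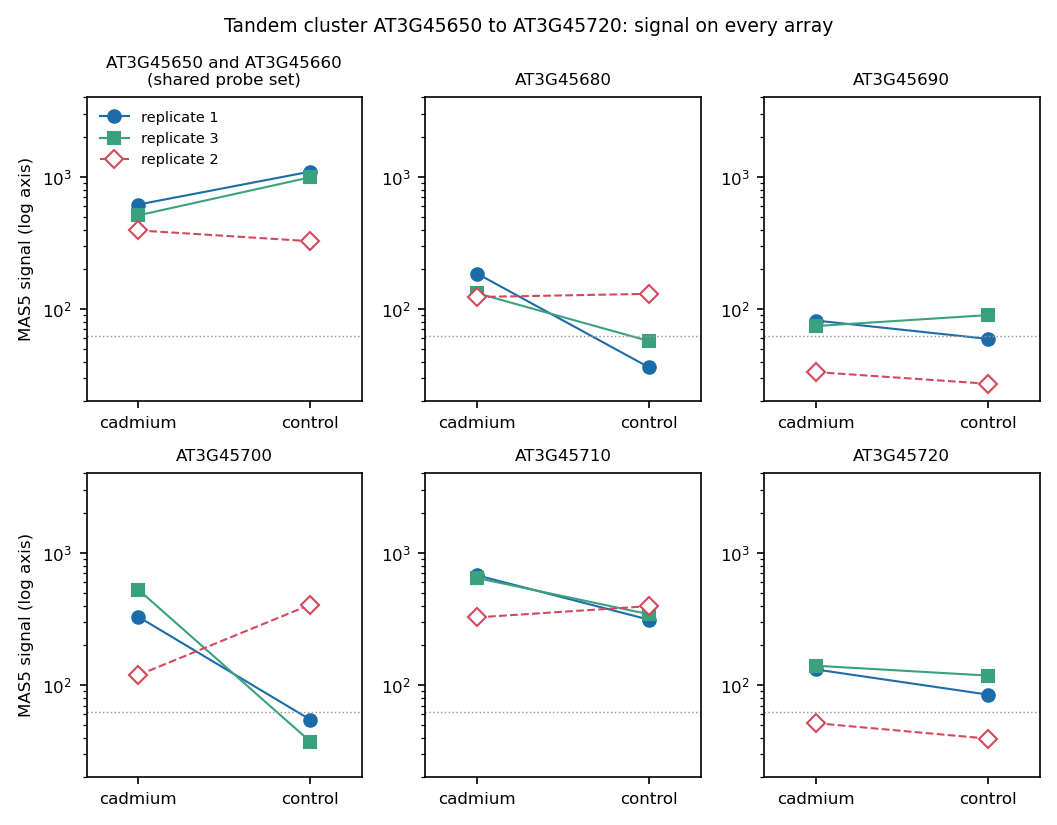
MAS5 signal (log axis) of the 6 probe sets of the tandem cluster on every array, with cadmium at the left and control at the right of each panel and a line for each replicate number; the dotted line is the signal of 62.1. For AT3G45700 replicates 1 and 3 lie at 329 and 528 with cadmium, against 54.6 and 37.3 in controls, and the dashed line of replicate 2 slopes the other way.

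The 4 tested loci of the cluster had differences of 0.44 to 3.21 in replicates 1 and 3 with a median of 1.40, beside a median of 0.64 over the 23 tested members outside it and 0.22 over all probe sets tested. In 4 of these 4 loci the groups did not overlap in replicates 1 and 3, with higher signal on the cadmium arrays, as in 40.8% of all probe sets tested. Outside the cluster 9 of 23 members were separated in this direction and 2 in the other, which held for 16.9% of all probe sets. These counts are on the signals as deposited. After centring of the arrays on their medians the groups of AT3G45720 overlapped, with a difference of 0.18. Those of AT3G45680, AT3G45700 and AT3G45710 still did not overlap. The shares over all probe sets tested were then 22.9% higher and 28.6% lower. Within the cluster, AT3G45690, too dim for the test, had a difference of 0.09. With it the median over the 5 loci with a probe set of their own was 1.01. The probe set shared by AT3G45650 and AT3G45660 was separated towards lower signal on the cadmium arrays, with -0.89. The within-array log2 ratio of AT3G45700 to AT3G45710 was -1.04, -1.45 and -0.29 on the cadmium arrays, against -2.52, 0.04 and -3.20 on the control arrays. In replicates 1 and 3 these neighbours therefore differed by unequal amounts, and in replicate 2 the ratio went the other way.

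**Figure D2:**
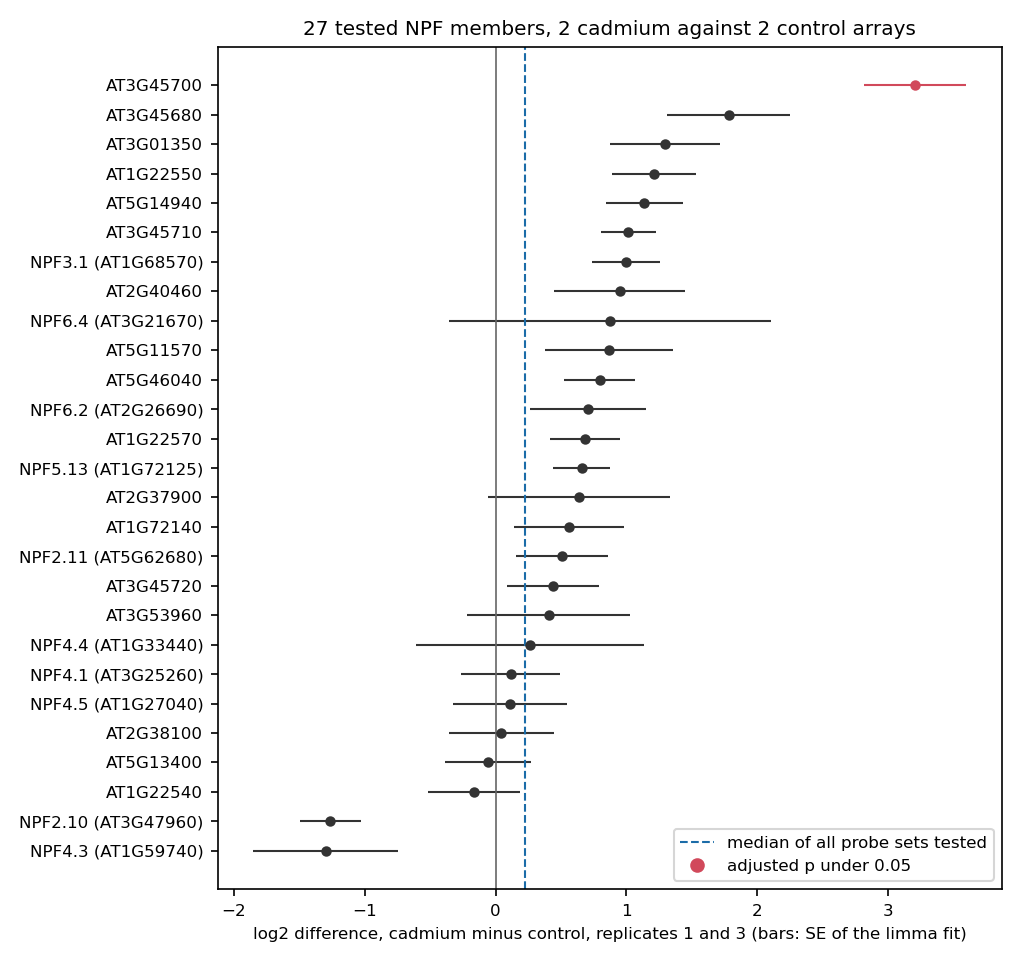
Fitted log2 difference, cadmium minus control, of the 27 tested members in replicates 1 and 3, 2 arrays against 2, with bars for the SE and a dashed line at 0.22, the median of all probe sets tested. AT3G45700 (3.21) is the 1 member in red, past an adjusted p of 0.05, and NPF2.10 and NPF4.3 lie at the low end with -1.26 and -1.30.

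GTR1 (NPF2.10, AT3G47960) and GTR2 (NPF2.11, AT5G62680) import glucosinolates, the sulfur-rich defence compounds of the cabbage order, and together set how these are shared between root and shoot. GTR1 had signals of 415, 479 and 341 on the cadmium arrays, against 989, 366 and 823 on the control arrays. It was dimmer on the cadmium arrays of replicates 1 and 3, by 1.25 and 1.27, and brighter by 0.39 on that of replicate 2. The difference in replicates 1 and 3 was -1.26 ± 0.23 (SE, limma adjusted p = 0.0516). It passed when arrays were centred on their medians (-1.52, limma adjusted p = 0.0298) or quantile normalized (-1.37, limma adjusted p = 0.0447). It did not pass without the filter on low signals, with the floor or without limma's intensity trend (limma adjusted p = 0.0606, 0.0590 and 0.0759). With 1 array left out the difference ran from -1.40 to -1.12.

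GTR2 had signals of 2167, 356 and 1577 on the cadmium arrays, against 1756, 608 and 964 on the control arrays. Its groups overlapped in replicates 1 and 3, with a difference of 0.51 ± 0.35 (SE, limma adjusted p = 0.420). Within each array the log2 ratio of GTR1 to GTR2 was -2.39, 0.43 and -2.21 on the cadmium arrays, against -0.83, -0.73 and -0.23 on the control arrays. The ratio was lower on the cadmium array in replicates 1 and 3 and higher in replicate 2. This difference between the pair of transporters was not tested.

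Members of the NPF4 group include importers of abscisic acid and gibberellin, as shown for NPF4.1, NPF4.2 and NPF4.5 in yeast. NPF4.3 (AT1G59740) had signals of 1528, 1322 and 513 on the cadmium arrays, against 2687, 797 and 1768 on the control arrays. It was dimmer on the cadmium arrays of replicates 1 and 3, by unequal amounts of 0.81 and 1.78, and brighter by 0.73 in replicate 2. Its difference in replicates 1 and 3 was -1.30 ± 0.55 (SE, limma adjusted p = 0.227), with -2.09 left without the cadmium array of replicate 1 and -0.51 without that of replicate 3. NPF4.1, NPF4.4 and NPF4.5 had differences of 0.12, 0.26 and 0.11 with groups that overlapped. NPF4.2 was too dim for the test, with signals of 33.4 to 69.4 on the cadmium and 62.7 to 73.2 on the control arrays.

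NPF3.1 (AT1G68570), a gibberellin transporter of the root, had signals of 301, 38.4 and 385 on the cadmium arrays, against 157, 48.2 and 186 on the control arrays. Its groups did not overlap in replicates 1 and 3, where the difference was 0.997 ± 0.26 (SE, limma adjusted p = 0.105), and both arrays of replicate 2 were under 62.1.

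Several members known here by locus alone had differences of at least 1 with groups that did not overlap in replicates 1 and 3. AT1G22550 had signals of 806, 191 and 562 on the cadmium arrays, against 361, 507 and 234 on the control arrays. The difference was 1.21 ± 0.32 (SE, limma adjusted p = 0.109), and -1.41 in replicate 2, so that the direction was turned by a similar amount. Its neighbours on either side, with no protein-coding gene between, were AT1G22540 with -0.16 ± 0.35 and AT1G22570 with 0.68 ± 0.26 (SE, limma adjusted p = 0.802 and 0.198). AT1G22540 overlapped between groups and AT1G22570 did not.

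AT5G14940 had signals of 538, 93.7 and 643 on the cadmium arrays, against 215, 263 and 332 on the control arrays. The difference was 1.14 ± 0.29 in replicates 1 and 3 (SE, limma adjusted p = 0.102) and -1.49 in replicate 2. AT3G01350 had signals of 281, 27.3 and 277 on the cadmium arrays, against 78.1, 140 and 166 on the control arrays. The cadmium array of replicate 2 was the dimmest of the 6, under 62.1, and the cadmium arrays of replicates 1 and 3 were the brightest. Its difference was 1.30 ± 0.42 (SE, limma adjusted p = 0.149), and in replicate 2 it was -2.37, or -1.18 with the low signal set to 62.1. With 1 of the 4 arrays of replicates 1 and 3 left out, the difference ran from 0.82 to 1.45 for AT5G14940. For AT3G01350 it ran from 0.75 to 1.84.

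**Figure D3:**
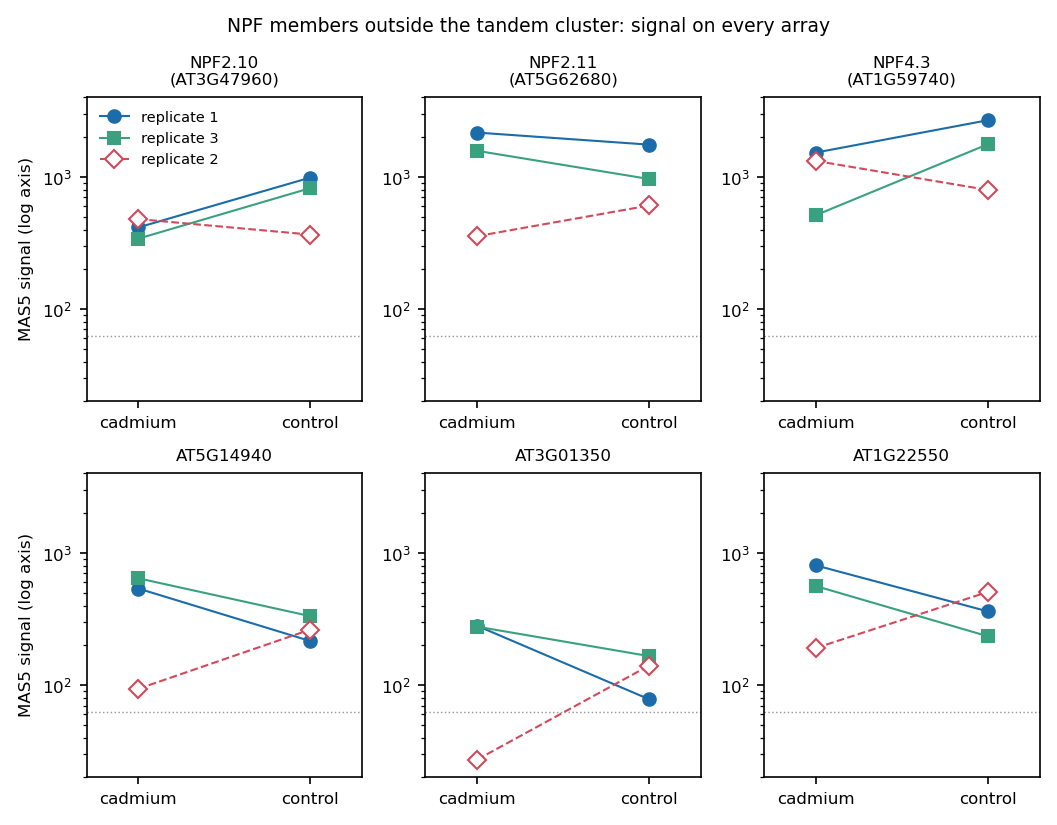
MAS5 signal (log axis) of 6 members outside the cluster on every array, cadmium at the left and control at the right, with a line for each replicate number and a dotted line at 62.1. GTR1 (NPF2.10) and NPF4.3 are lower on the cadmium arrays of replicates 1 and 3, and the dashed line of replicate 2 slopes against the lines of replicates 1 and 3 in each of the 6 panels.

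AT5G46040 had a smaller difference in replicates 1 and 3, 0.80 ± 0.27 (SE, limma adjusted p = 0.164), with groups that did not overlap, and -1.80 in replicate 2. AT2G40460 and AT5G11570 also had groups that did not overlap, but replicate 1 carried most of the difference, with 1.68 and 1.48 there (1.41 and 1.08 with low signals set to 62.1) against 0.22 and 0.25 in replicate 3. AT2G37900, AT3G53960 and AT1G72140 had 1.16, 1.12 and 1.20 in replicate 1, and 0.12, -0.30 and -0.08 in replicate 3. For these 3 loci the groups overlapped, and their differences in replicates 1 and 3 had adjusted p-values of 0.451 to 0.719 (limma). AT2G38100 and AT5G13400 were close to 0, with 0.04 and -0.06.

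NPF6.2 (AT2G26690), which is known for storing nitrate in the leaf stalk, had signals of 163, 23.9 and 333 on the cadmium arrays, against 115, 47.4 and 178 on the control arrays. Its groups overlapped and the difference was 0.71 ± 0.45 (SE, limma adjusted p = 0.378). NPF6.4 (AT3G21670) had signals of 152, 61.9 and 45.4 on the cadmium arrays, against 138, 60.0 and 14.9 on the control arrays. Of its 6 signals 4 were under 62.1, and its SE of 1.23 was the widest among the tested members. The difference was 0.87, and 0.07 with low signals set to 62.1.

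NPF5.13 (AT1G72125) was higher on the cadmium array in 3 of 3 pairs. Its signals were 420, 195 and 417 on the cadmium arrays, against 281, 161 and 250 on the control arrays. With every array scaled to a trimmed mean of 500 they became 420, 428 and 417 on the cadmium arrays, against 281, 374 and 250 on the control arrays, so the groups of all 6 arrays did not overlap. This held for 1 of the 27 tested members, beside 2.49% of all probe sets higher and 0.905% lower. With arrays centred on their medians it held for 2 members, NPF5.13 and AT5G11570, beside 1.53% higher and 1.75% lower. On the signals as deposited it held for 0 members, beside 0.710% and 0.371% of all probe sets. For AT5G11570 both signals of replicate 2 were under 62.1, where they carry no order (46.4 with cadmium and 47.3 in the control). The difference of NPF5.13 was 0.66 ± 0.22 in replicates 1 and 3 and 0.53 ± 0.67 over all 6 arrays (SE, limma adjusted p = 0.155 and 0.999995).

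Counted over the family, the share of brighter signals on the cadmium array differed by pair. It held for 25 of the 27 tested members in replicate 1, for 9 in replicate 2 and for 19 in replicate 3 (92.6%, 33.3% and 70.4%). Over all probe sets tested the shares were 69.3%, 43.1% and 60.9%. With the members too dim for the test the counts were 31, 16 and 19 of 34. Over all 22746 probe sets that are not controls the shares were 67.5%, 50.9% and 54.6%. With signals as deposited, the family stood farthest from the rest of the array in replicate 1. The median signal of the whole array was 244, 94.4 and 221 on the cadmium arrays, against 192, 100 and 197 on the control arrays. The shares by pair were not counted after centring. The 27 tested members alone had median differences of 0.63, -0.13 and 0.25 in replicates 1, 2 and 3, beside 0.29, -0.11 and 0.16 over all probe sets tested. The fitted differences of replicates 1 and 3 were positive for 67.3% of all probe sets tested as deposited and for 47.0% after centring, which sets the 23 and 20 of 27 members in context. The median of the members was 0.66 as deposited, against 0.22 over all probe sets tested, and 0.40 against -0.03 after centring.

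**Figure D4:**
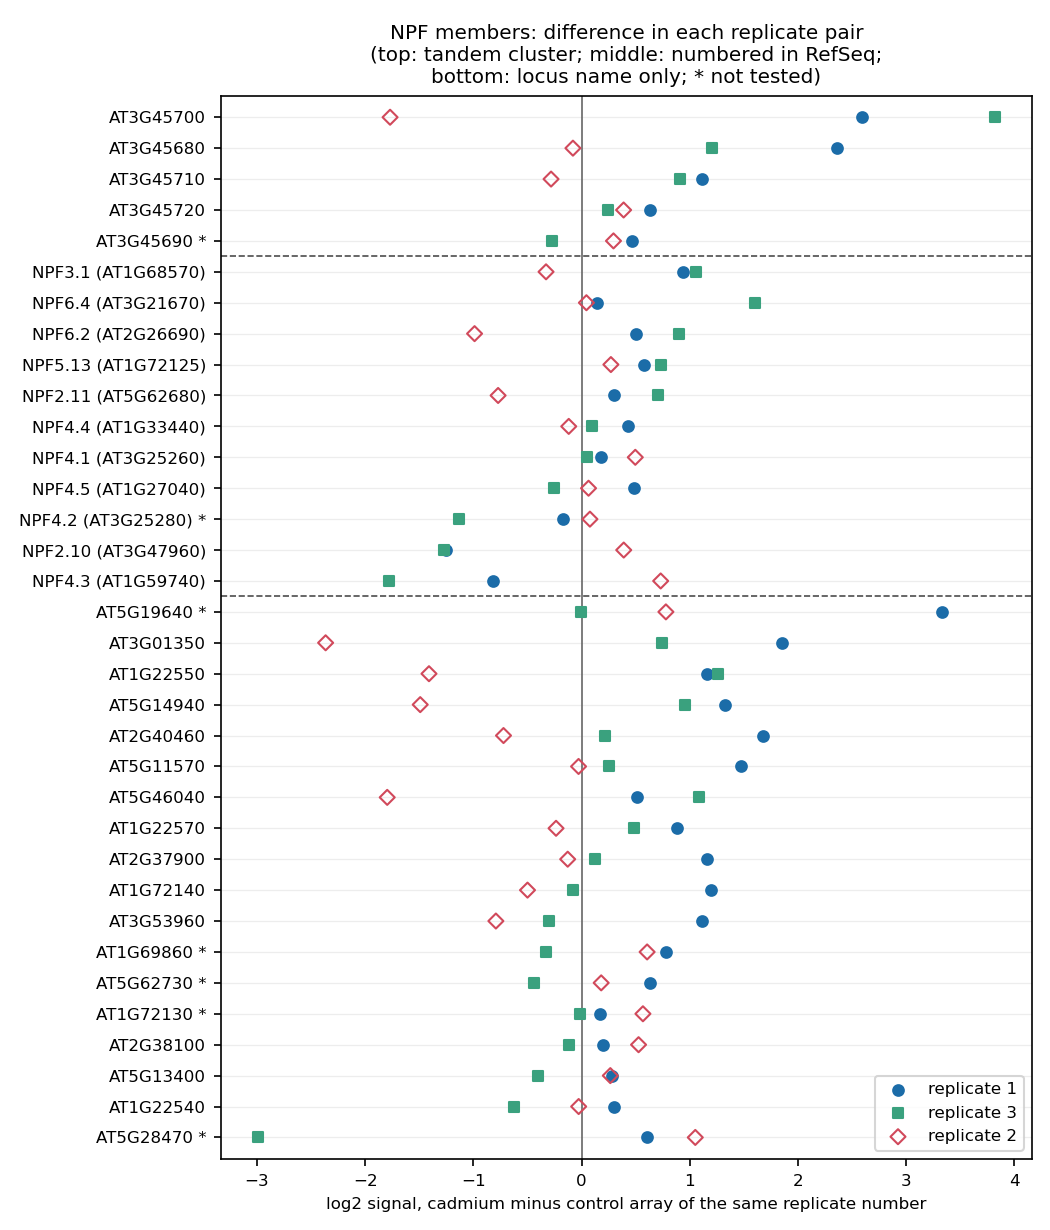
Log2 difference, cadmium minus control, of each of the 34 members in replicate 1 (circles), replicate 3 (squares) and replicate 2 (open diamonds), with the tandem cluster at the top and untested members marked by an asterisk. In replicate 1, 31 of 34 points lie right of 0, and the diamond of AT3G01350 at -2.37 rests on a cadmium signal under 62.1.

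Of the 27 tested members, 13 had higher and 2 lower signal on both cadmium arrays than on both control arrays of replicates 1 and 3, or 48.1% and 7.41%. The shares over all probe sets tested were 40.8% and 16.9%. After centring of the arrays on their medians the counts were 12 and 3, beside 22.9% and 28.6% of all probe sets. A difference of at least 2-fold in each of replicates 1 and 3 occurred in 3 members with higher signal (AT3G45680, AT3G45700 and AT1G22550) and 1 with lower (GTR1), beside 4.71% and 5.66% of all probe sets. The members share the arrays and were chosen as a family, so no test was made over them.

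Replicate 2 opposed replicates 1 and 3 in 17 of the 27 tested members (63.0%), close to the 59.7% of all probe sets. In 4 members (14.8%, against 17.3%) all 3 pairs had 1 sign, namely AT3G45720, NPF4.1, NPF5.13 and NPF6.4, all towards higher signal on the cadmium array. In AT3G45720 and NPF6.4 both signals of replicate 2 were under 62.1. NPF6.4 turned to -0.03 in replicate 2 when arrays were scaled alike. Across the 27 members Pearson's r between the differences of 2 pairs was 0.68 for replicates 1 and 3, -0.58 for 1 and 2, and -0.60 for 2 and 3, beside 0.77, -0.68 and -0.63 over all 15909 probe sets. The points are genes measured on the same arrays and are not independent.

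**Figure D5:**
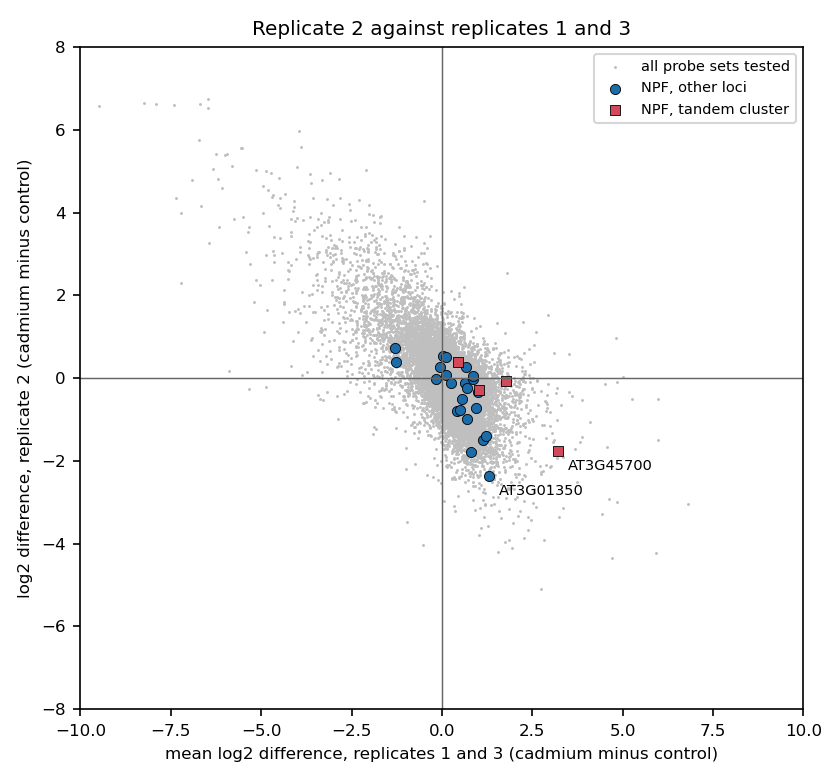
Log2 difference in replicate 2 (vertical) against the mean log2 difference in replicates 1 and 3 (horizontal), cadmium minus control, for all 15909 probe sets tested (grey), NPF members of the tandem cluster (squares) and other NPF members (circles). The cloud falls from upper left to lower right, and AT3G45700, at 3.21 and -1.77, lies to the right of the other members.

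The 7 members too dim for the test had mean signals of 9.21 to 64.2, against 78.6 to 1436 for the 27 tested ones, on either side of the filter at 73.0. These 7 were AT3G45690, AT5G28470, AT1G69860, NPF4.2, AT5G62730, AT1G72130 and AT5G19640. AT5G19640 was under 62.1 on each of the 6 arrays, and its difference of 3.33 in replicate 1 stood between signals of 18.7 on the cadmium and 1.85 on the control array. AT5G28470 had 98.0, 77.3 and 5.03 on the cadmium arrays, against 64.6, 37.3 and 40.0 on the control arrays. Each of the 7 loci had signals under 62.1, and differences that rest on such signals carry no order. Of the 27 tested members, 12 had at least 1 array under 62.1 and 15 had none.

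Of the other genes that handle nitrogen, few had a named probe set. In the list of other nitrate transport genes 2 of 20 were named and 1 was tested, and in nitrate signalling 1 of 13 was named and tested. The lists of nitrate reduction and assimilation, ammonium transport and the oligopeptide transporter family OPT had 0 named members out of 19, 5 and 9. Of the tested genes 0 passed the threshold in either direction. AT3G25790, listed under nitrate signalling, had signals of 253, 30.1 and 325 on the cadmium arrays, against 25.8, 311 and 118 on the control arrays. It was brighter on the cadmium arrays of replicates 1 and 3 and dimmer on that of replicate 2, with a difference of 2.37 ± 0.75 in replicates 1 and 3 (SE, limma adjusted p = 0.142). With low signals set to 62.1 the difference was 1.74 (limma adjusted p = 0.0874). AT4G24730, listed under other nitrate transport but named in the RefSeq table by its locus alone, had a difference of 0.16 ± 0.23 (SE, limma adjusted p = 0.695). NRT2.5, a high-affinity nitrate transporter, was too dim for the test, with signals of 19.5 to 94.4 on the cadmium and 27.5 to 76.5 on the control arrays.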

How the data were processed

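Root RNA (6 µg a sample) from 3 cadmium and 3 control samples went onto ATH1 arrays of Affymetrix after biotin labelling. The authors deposited linear intensity signals from MAS5, named in the submitters' processing notes without a version. The number of arrays limits the precision. The p-values set each difference against the spread between these samples, which limma moderates across all probe sets tested.

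Signals were analysed on the log2 scale. The 7 signals of 0, all on control replicate 2, took the lowest positive signal of the same array. The 64 control probe sets and those with a mean signal under 73.0 (the 30th percentile) were left out. Models were fitted in R 4.3.3 by limma 3.58.1 with a trended eBayes step (two-sided, Benjamini-Hochberg over 15909 probe sets), with group as the only term and 4 residual degrees of freedom over all 6 arrays and 2 within replicates 1 and 3. They were also run on simulated signals with known changes and independent noise. That simulation held no opposed replicate 2, so it checks the code and not these results. Folds from a group with a mean under 62.1, the 30th percentile of all signals, take that level for every dimmer signal and are given as "at least". Alternatives were other scalings, filters, a floor, no trend, array weights, a replicate block and left-out arrays.

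Groups and replicate numbers are those in the titles. The descriptions number the replicates otherwise but pair the same arrays. The deviations of same-numbered arrays from their group means correlated with 0.11, -0.04 and 0.29. Differences that run opposite between replicates lower these correlations, so they cannot decide whether the numbers pair the arrays. The labels do not say what a shared number stands for. The main fits therefore hold no replicate term, and differences within a number are given as description. Probe sets were named through gene identifiers in the RefSeq table of TAIR10.1, whose coordinates were not used, since the files name no build. Of 22746 probe sets that are not controls, 13513 had 1 gene, 503 several and 8730 none.

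The members, the lists and the fit within replicates 1 and 3 were chosen with earlier results of these data known. Described in full are members past the threshold, those of the tandem cluster, those with a difference of at least 1 and groups that do not overlap in replicates 1 and 3, and the 3 with the highest mean signal. From the other lists, genes past the threshold and the one with the widest difference are named; the other named loci and NRT2.5 were added after their values were seen.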

Additional observations from a re-analysis of the deposited data

How the results depend on the processing

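The count of NPF members past the threshold was small and moved with the processing. Over all 6 arrays it was 0, also with each scaling, without the filter, with the floor, without the trend, with a replicate block and without replicate pairs 1 or 3. It was 5 with array weights (4 higher and 1 lower, and 1560 of all probe sets), which were 0.12 and 0.20 for the cadmium and control arrays of replicate 2 and 1.32 to 3.56 for the rest, and 1 without replicate pair 2 (721 of all probe sets). Leaving out 1 array gave 0 members, and 0 to 1 of all probe sets. Within replicates 1 and 3 it was 1, and 2 after median centring or quantile normalization, with GTR1 added. Leaving out 1 array gave 0 to 4 members and 142 to 1266 of all probe sets. A group left with 1 array was assumed to vary like the other group. The 0 came without the cadmium array of replicate 1 or 3 (142 and 146 of all probe sets), and the 4 and 1266 without the control array of replicate 3. Without the trend 353 of all probe sets passed. The replicate block, whose pairing the check above cannot decide, gave 9 members (7 higher and 2 lower) and 3521 of all probe sets. Beside AT3G45700 these members were AT3G45680, AT3G45710, AT1G22550, AT5G14940, AT3G01350, NPF3.1, GTR1 and NPF4.3. Of the 721 probe sets past the threshold within replicates 1 and 3, 205 were higher and 516 lower, and after median centring 110 and 681. Centring took the median over all probe sets to -0.03 from 0.22. Members whose groups of all 6 arrays did not overlap numbered 1 after scaling to 1 trimmed mean and 2 after median centring. The 2 were NPF5.13 and AT5G11570, beside 1.53% of all probe sets higher and 1.75% lower. For AT5G11570 both signals of replicate 2 were under 62.1. These alternatives were chosen after seeing the data.

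For the 10 members described in full and tested, the 110 alternatives were all fits within replicates 1 and 3, without replicate 2. Of these, 0 reversed the difference, 96 kept its side of the threshold, 12 brought it past the threshold and 2 took it away, both for AT3G45700. Its difference ran from 2.75 to 3.55 (limma adjusted p = 0.00193 to 0.139). A reversal by replicate 2 could not appear in these fits, so they cannot show whether a difference holds there. In replicate 2 the difference of AT3G45700 was -1.77, and over all arrays it was 1.55. No other probe set of a member was named, so that alternative was not run. In 12 of the 27 tested members at least 1 array was under 62.1, where signals carry no order.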
